A study of Mus musculus with 6 samples.

Results

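The probes for the immunoglobulin kappa light chain locus were followed across 6 one-colour Agilent mouse arrays. A probe belonged to the set when its gene name in the array design began with Igk, or when its description held the words immunoglobulin kappa. This rule took 98 of the 55681 non-control probes, and it used no measured value. By name, 94 of the 98 are kappa locus probes, of which 92 are for variable (V) segments and 2 carry the name of the constant region, Igkc. The other 4 probes are for Rbpj and Rbpjl, transcription factors on chromosomes 5 and 2 whose descriptions mention a kappa recombination signal. They are not part of the locus and are given apart. The array holds 0 probes named for a kappa joining (J) segment, so J segments were not measured.

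All 6 RNA samples came from 1676 cells, a mouse pre-B cell line that lacks the adaptor proteins SLP-65 and LAT, and all were cultured with an excess of IL-7, the growth factor that keeps the line at the pre-B stage. Cells carried an empty control vector, a vector for miR-26a (the human hsa-miR-26a-2 construct), or a sponge that sequesters miR-26 family members, each introduced by retroviral transduction and puromycin selection. Each of the 3 groups had 2 arrays, which are named replicate 1 and replicate 2 after the labels and stand for 2 independent experiments. A single cell line in IL-7 is thus the only material. The questions were how the kappa probes differed between cells with miR-26a and cells with the control vector, whether the sponge moved them, and whether the constructs differed from each other.

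A kappa light chain gene is assembled in developing B cells. Enzymes that include RAG1 and RAG2 join 1 of many V segments to 1 of a few J segments upstream of the single constant exon, and the product is transcribed and spliced to that exon. Many V segments are also transcribed before any joining, as germline transcripts. A V probe hybridizes to both kinds of RNA, and a probe of the constant exon reads any transcript that contains it. In the mouse the V segments spread over a long stretch of chromosome 6, in either orientation relative to Igkc, and are grouped by sequence into families that give the first number of a gene's name. In the array design (mouse genome build mm9) the V probes of this cluster start between positions 67505984 and 70653921, with the farthest mapped V probe 3170.7 kb from the Igkc probe.

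Some probes carry the results and are shown here first, each as the 60 bases on the array, with the position of the array design. The first 3 are for Igkv3-1, Igkv3-2 and Igkv3-4, family 3 segments close to Igkc whose probes had the largest rises with miR-26a. They are followed by the brightest V probes, for Igkv9-124 and Igkv14-111, by a probe for Igkv1-122 from the same distant stretch that was not called changed, by the probe for Igkv1-135, the V probe called lower, and by the constant region probe.
Igkv3-1, chr6:70653921-70653980, plus strand: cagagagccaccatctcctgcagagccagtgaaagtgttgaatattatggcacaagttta
Igkv3-2, chr6:70648995-70649054, plus strand: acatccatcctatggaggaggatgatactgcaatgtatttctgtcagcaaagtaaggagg
Igkv3-4, chr6:70622214-70622273, plus strand: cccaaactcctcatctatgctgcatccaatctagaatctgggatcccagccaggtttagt
Igkv9-124, chr6:67892237-67892296, minus strand: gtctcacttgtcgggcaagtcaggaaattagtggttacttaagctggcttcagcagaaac
Igkv14-111, chr6:68206771-68206830, plus strand: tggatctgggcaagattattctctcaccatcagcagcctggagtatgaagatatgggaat
Igkv1-122, chr6:67967417-67967476, plus strand: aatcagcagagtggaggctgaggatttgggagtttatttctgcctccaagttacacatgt
Igkv1-135, chr6:67560270-67560329, plus strand: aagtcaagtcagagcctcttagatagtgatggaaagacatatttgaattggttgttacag
Igkc, chr6:70676692-70676751, plus strand: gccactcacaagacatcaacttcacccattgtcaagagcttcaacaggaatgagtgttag

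V segments resemble each other, so a V probe may also bind transcripts of a related segment. The next 4 probes show how far this goes, with the stretch that a pair shares in capitals. The probes for Igkv4-78 and Igkv4-57-1 share a run of 53 bases. The probes for Igkv8-28 and Igkv6-17, which belong to different families, share a run of 40 bases.
Igkv4-78, chr6:69009686-69009743, minus strand: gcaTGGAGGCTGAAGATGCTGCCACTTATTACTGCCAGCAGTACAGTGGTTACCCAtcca
Igkv4-57-1, chr6:69494355-69494414, minus strand: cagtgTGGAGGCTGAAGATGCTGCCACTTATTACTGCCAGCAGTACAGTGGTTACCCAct
Igkv8-28, chr6:70093587-70093646, minus strand: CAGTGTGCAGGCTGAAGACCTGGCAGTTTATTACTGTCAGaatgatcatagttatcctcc
Igkv6-17, chr6:70321926-70321985, plus strand: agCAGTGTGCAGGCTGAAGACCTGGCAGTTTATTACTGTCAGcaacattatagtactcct

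The miRNA is shown for the same reason, since the words it would pair with were sought in the probes. The mature mouse sequences from RefSeq (GRCm38.p6) are given with the seed, bases 2 to 8, in capitals, and miR-26a and miR-26b share that seed.
mmu-miR-26a-5p: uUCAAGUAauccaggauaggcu
mmu-miR-26b-5p: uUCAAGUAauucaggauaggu

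Of the 94 kappa probes, 1 contained TACTTGA, the match to the whole seed, on the probe's own strand (1.06%, against 0.431% of all probes). Likewise 1 contained ACTTGAA, the match to bases 2 to 7 followed by an A (0.7% of all probes). Both words overlap in the same probe, for Igkv2-112, which was well above background on no array. No tested kappa probe held either word. The heptamer CACAGTG of the recombination signal, which flanks germline V segments, was present in 2 of the 94 probes (2.13%, against 0.797% of all probes), for Igkv4-92 and Igkv4-86, and its other strand, CACTGTG, was present in 1 (1.06%, against 0.828%), for Igkv6-29. Only the presence of the heptamer was sought, and whether it lies at a recombination signal in these probes was not tested. A 60-base probe says nothing about sites elsewhere in a transcript.

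The 94 probes name 86 genes or accessions. Among these are 81 named V genes, and all 81 matched a RefSeq symbol, as 78 V segments and 3 V segment pseudogenes. A further 4 V probes carry only an accession. The array design gave a position for 90 of the 94. The mapped span of the probe for Igkv8-24 covers 259 bases and that for Igkv4-92 covers 265, although each probe has 60. Where the bases of these probes lie within their spans was not tested. Between the first V probe and the constant region the array holds 20 further probes that the rule leaves out. The probe named Igkv4-71 starts 75 bases from the Igkv4-57-1 probe, at position 69494430, so its gene name is uncertain. The probe of ENSMUST00000103301 lies at chr6:43031517-43031576, far outside the cluster.

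Signals were read as processed signal, the background-subtracted brightness that the scanner software gives, which was quantile-normalized between arrays and put on the log2 scale. Of 59305 spots per array, 28823 to 29800 were well above background and none was saturated. Replicate arrays correlated at 0.996 to 0.997. The arrays came from 1 slide, on which replicate 1 and replicate 2 lie in different rows, so that experiment and slide row cannot be told apart. In both rows the control array lay at position 1, the miR-26a array at position 2 and the sponge array at position 4. Group and position within the row thus cannot be told apart either. A test was made for probes whose processed signal exceeded 50 on 4 or more of the 6 arrays, 1 or more of them well above background. The precision of all values is limited by having 2 arrays a group.

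Signals well above background were found for 61 of the 94 kappa probes on every one of the 6 arrays, for 11 on some and for 22 on none. The test covered 48 of the 94, or 51.1%, whereas it covered 36.2% of all probes. All 9 probes of family 3 and all 4 of family 9 were tested, as were 13 of 20 in family 4, 6 of 10 in family 1, 3 of 5 in family 2 and 3 of 4 in family 14. Family 5 had 0 of 5 probes tested, and families 6, 8 and 12 had 2 of 9, 2 of 7 and 1 of 5. Of 19 V families on the array, 12 had a tested probe. The number of V probes well above background hardly differed between arrays, with 64 and 66 of 92 in the control arrays, 66 and 68 with miR-26a, and 63 and 66 with the sponge.

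With miR-26a, most of the tested kappa V probes had a higher signal than with the control vector, while the constant region probe did not. limma called 30 of the 48 tested kappa probes higher and 1 lower at an adjusted p under 0.05, where 4.59% of all tested probes were called higher and 5.13% lower. The median change of the 48 probes was 0.66 on the log2 scale, against 0.01 over all 20168 tested probes, and single probes ranged from -0.79 to 1.47. In the first experiment the median was 0.61 and in the second 0.69. In both experiments 39 of the 48 moved up and 3 moved down. The miR-26a arrays lay above both control arrays for 37 of the 48 probes (77.1%), where 26.8% of all tested probes did so, and below them for 1 (2.08%), where 22.6% of all tested probes did so. The count of calls rested on the pairing of the arrays by experiment: 3 probes were called higher when the experiment was left out of the fit. Over all 20168 tested probes that fit called 74 higher, in place of 926. Fewer were also called without either control array, among kappa probes and over all tested probes, in fits with 1 control array left.

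**Figure D1:**
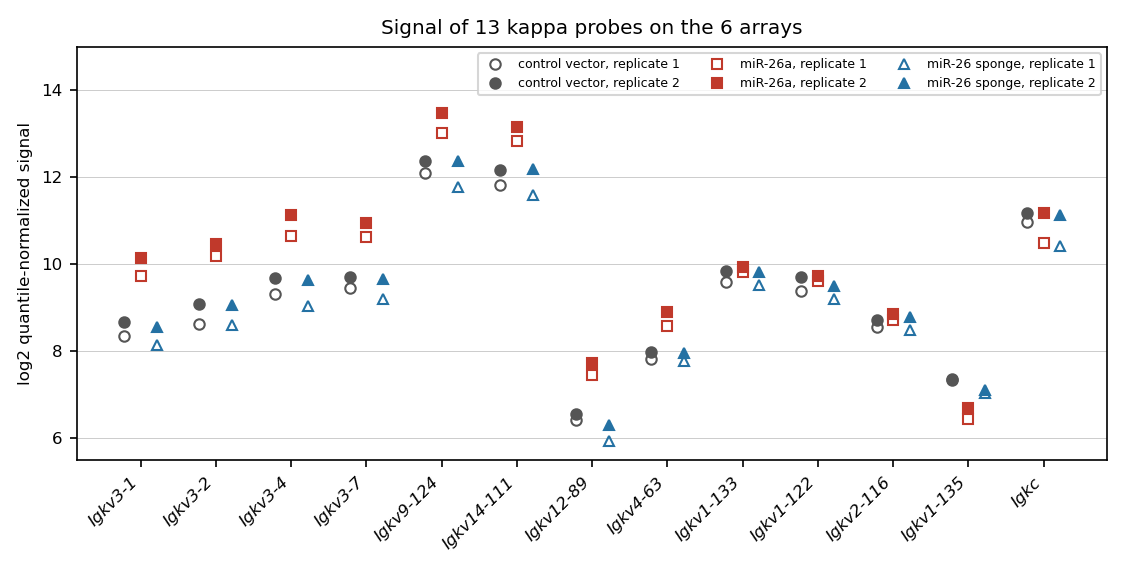
Log2 quantile-normalized signal of 13 kappa probes on each of the 6 arrays. Open symbols are replicate 1 and filled symbols replicate 2, with circles for the control vector, squares for miR-26a and triangles for the miR-26 sponge. For the first 8 probes both miR-26a arrays sit above the other 4 arrays, for Igkv1-135 both sit below them, and for Igkc the groups overlap.

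Igkc encodes the constant region that every kappa chain carries. Its probe, at the 3′ end of the coding sequence, gave 10.98 and 11.18 (log2 signal) in the control arrays, 10.50 and 11.19 with miR-26a, and 10.41 and 11.13 with the sponge. The replicate 1 arrays of both constructs were lower than the others, and the groups overlapped. The difference between miR-26a and control was -0.23 (SE 0.14, 95% confidence interval -0.58 to 0.12, limma adjusted p = 0.355). That between sponge and control was -0.31 (interval -0.66 to 0.04, limma adjusted p = 0.354). Neither was called, and the interval for miR-26a reaches up to 0.12, below the median of the V probes.

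A second probe also bears the name Igkc, at chr6:70690489-70690548, downstream of the first, and represents an unclassified cDNA. It was well above background on 2 arrays and was not tested. Its log2 signals were 3.67 and 6.05 in the controls, 3.48 and 3.75 with miR-26a, and 2.44 and 4.63 with the sponge, with no order between the groups.

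Family 3, which includes the V segments nearest to the J segments, had all 9 of its tested probes called higher with miR-26a, with a median change of 0.90 and a range from 0.54 to 1.47. Igkv3-1, whose probe lies 22.8 kb upstream of the Igkc probe, gave log2 signals of 8.36 and 8.68 with the control vector, 9.74 and 10.15 with miR-26a, and 8.14 and 8.56 with the sponge. Both miR-26a arrays were above all other arrays, whereas control and sponge arrays overlapped. The rise was 1.42 (SE 0.07, limma adjusted p = 0.0025), or 2.68-fold.

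Igkv3-2, 27.7 kb upstream, gave 8.63 and 9.10 with the control vector, 10.19 and 10.47 with miR-26a, and 8.61 and 9.08 with the sponge. Its rise of 1.47 (SE 0.08, limma adjusted p = 0.00275) was the highest of the tested kappa probes, and the control and sponge arrays of the same experiment differed by little. Igkv3-4, 54.5 kb upstream, gave 9.32 and 9.68 with the control vector, 10.66 and 11.13 with miR-26a, and 9.04 and 9.64 with the sponge, a rise of 1.39 (SE 0.08, limma adjusted p = 0.00314). The second Igkv3-4 probe rose by 0.90 (limma adjusted p = 0.00652). The probes of this gene thus moved the same way but not by the same amount, and the second shares long stretches with probes for Igkv3-10 and Igkv3-12.

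Igkv3-7, 118.8 kb upstream, gave 9.47 and 9.70 with the control vector, 10.62 and 10.94 with miR-26a, and 9.21 and 9.66 with the sponge, a rise of 1.20 (limma adjusted p = 0.00404). Again only the miR-26a arrays stood apart. The 5 family 3 probes within 130 kb of the Igkc probe had a median change of 1.39 (0.90 to 1.47), and the 4 probes from 130 to 250 kb, which include Igkv3-10 and Igkv3-12, had a median of 0.78 (0.54 to 0.86). The 130 kb limit falls between Igkv3-7 and Igkv3-9, which lies 138 kb upstream and rose by 0.54. A difference between these stretches was not tested.

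**Figure D2:**
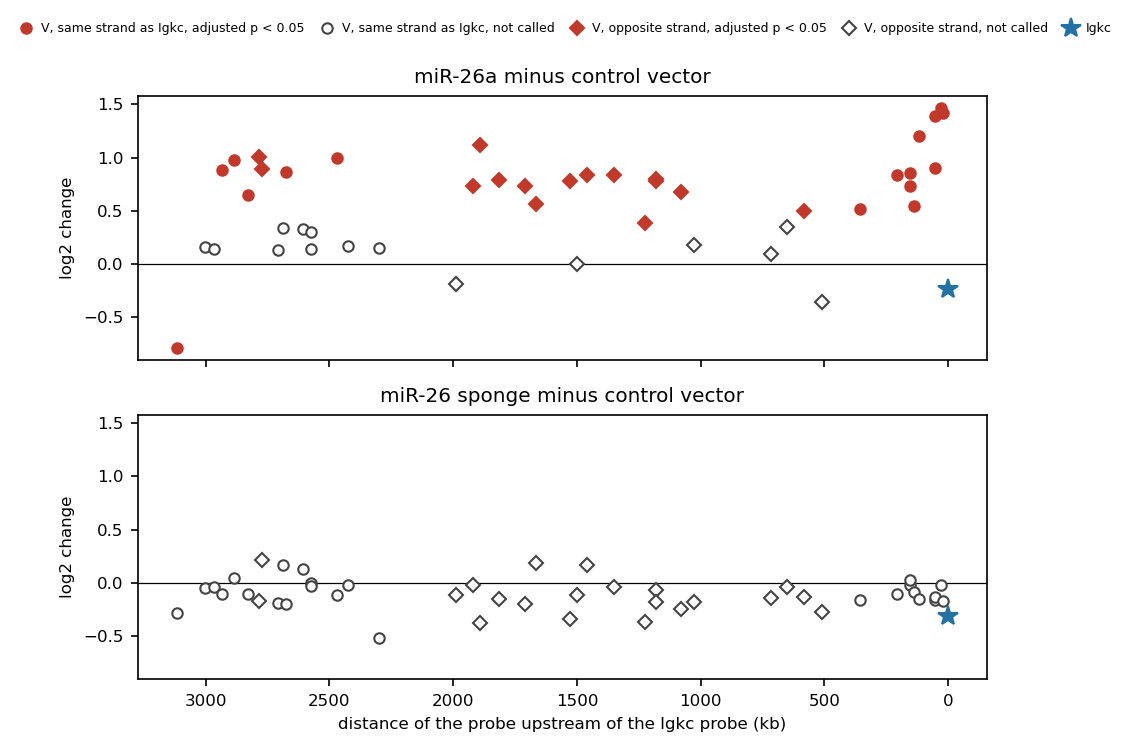
Log2 change of the tested kappa probes against their distance upstream of the Igkc probe in kb, for miR-26a minus control (upper panel) and miR-26 sponge minus control (lower panel). The probe of ENSMUST00000103301, far outside the cluster, is not drawn. Filled red symbols have an adjusted p under 0.05, circles lie on the same strand as Igkc, diamonds on the opposite strand, and the star is Igkc. Called probes of the upper panel lie along the whole stretch and reach 1.47 next to Igkc, and the lower panel has 0 called probes.

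Family 4, the most numerous on the array, lies in the middle of the cluster with its tested probes between 1025.8 and 1919.3 kb from Igkc. With miR-26a, 11 of 13 tested probes were called higher, with a median change of 0.74 and none above 0.84. Igkv4-63 gave 7.83 and 7.99 with the control vector, 8.58 and 8.91 with miR-26a, and 7.77 and 7.97 with the sponge. The rise of 0.84 (limma adjusted p = 0.0066) was seen against both other groups, which overlapped. Igkv4-70 rose by 0.84 and Igkv4-73 by 0.78, and the smallest called rise of the family was that of Igkv4-58, at 0.39 (limma adjusted p = 0.0484). Igkv4-72 was level, with 6.64 and 6.43 in the controls and 6.50 and 6.57 with miR-26a, a difference of -0.003 (95% interval -0.23 to 0.22). Among these probes sequence is shared most: Igkv4-78 and Igkv4-57-1, printed above, are identical at 54 of 58 aligned bases and changed by 0.57 and 0.78, so these readings may not be independent.

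Families 9 and 14 lie at the far end of the cluster. All 4 tested probes of family 9 (median 0.94, 0.87 to 1.00) and all 3 of family 14 (median 0.89, 0.65 to 1.00) were called higher with miR-26a. Igkv9-124, 2784.5 kb from Igkc and on the opposite strand, gave 12.11 and 12.39 with the control vector, 13.01 and 13.49 with miR-26a, and 11.78 and 12.38 with the sponge. Its rise was 1.00 (SE 0.09, limma adjusted p = 0.00698), or 2.00-fold, with the miR-26a arrays above all others.

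Igkv14-111, 2469.9 kb from Igkc, gave 11.83 and 12.18, then 12.83 and 13.17, then 11.59 and 12.19 in the same order of groups, a rise of 1.00 (SE 0.09, limma adjusted p = 0.00653). In each experiment its miR-26a array exceeded the control array by nearly the same amount. Igkv9-129 gave 9.24 and 9.44 with the control vector against 10.16 and 10.47 with miR-26a, a rise of 0.98, and Igkv14-130 gave 9.32 and 9.66 against 10.21 and 10.55, a rise of 0.89. For both probes the miR-26a arrays stood above the others. Igkv9-120 rose by 0.87 with a larger error (limma adjusted p = 0.0307), and its sponge arrays, at 9.98 and 10.75, lay on either side of the controls, at 10.47 and 10.66.

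Probes of families 1 and 2 are interleaved with those of families 9 and 14 in this far stretch, and none of them was called higher. Igkv1-122, which lies between Igkv9-123 and Igkv9-120, gave 9.38 and 9.70 with the control vector, 9.63 and 9.73 with miR-26a, and 9.20 and 9.50 with the sponge. Its miR-26a and control arrays overlapped, and their difference of 0.14 had a 95% interval of -0.07 to 0.34 (limma adjusted p = 0.358). Its miR-26a arrays lay above both sponge arrays, with a difference of 0.32 that was not called (limma adjusted p = 0.0514). Igkv1-133 gave 9.59 and 9.86, 9.82 and 9.95, and 9.54 and 9.82 in the same order, a difference of 0.16 (interval -0.03 to 0.34, limma adjusted p = 0.243). One of the 2 Igkv2-116 probes gave 8.57 and 8.72, 8.72 and 8.85, and 8.50 and 8.80, a difference of 0.14 (limma adjusted p = 0.3). For this Igkv2-116 probe the miR-26a arrays were just above the controls, but no group stood apart from both others at any of these 3 probes. At the second Igkv2-116 probe the miR-26a arrays, at 8.35 and 8.40, lay above the controls (7.97 and 8.17) and the sponge arrays (7.90 and 8.19). Its difference from control was 0.30 (95% interval 0.10 to 0.51, limma adjusted p = 0.0823). At Igkv1-132 the miR-26a arrays also lay above all others, with a difference of 0.14 (limma adjusted p = 0.401). Neither of those probes was called.

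Across the far stretch, between 2423.6 and 3116.4 kb from Igkc, the 7 probes of families 9 and 14 had a median change of 0.89 (0.65 to 1.00) and all 7 were called higher. The 8 probes of families 1 and 2 had a median of 0.15 (-0.79 to 0.33), with 0 called higher and 1 lower. The difference between these families was not tested. Some of the latter probes share sequence, as Igkv1-133 and 1 Igkv2-116 probe are identical at 51 of 56 aligned bases. Only 1 probe of family 1 was tested nearer to Igkc, that for Igkv1-35, which differed by 0.09 (limma adjusted p = 0.661). The family 1 probe for Igkv1-88, also nearer to Igkc, was well above background on every array but too dim to be tested. With miR-26a it was higher by 0.89, in both experiments, and its miR-26a arrays lay above both controls. Family 1 was thus not level at every detected probe.

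Igkv1-135, at the far edge of the tested probes, was the V probe called lower. It gave 7.35 and 7.36 with the control vector, 6.44 and 6.69 with miR-26a, and 7.03 and 7.11 with the sponge. The miR-26a arrays were the lowest, the control arrays the highest, and the sponge arrays lay between them without overlap. The change with miR-26a was -0.79 (SE 0.08, limma adjusted p = 0.00854), a 1.73-fold lower signal, and that with the sponge was -0.29 (limma adjusted p = 0.241). This call was lost without control replicate 1.

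**Figure D3:**
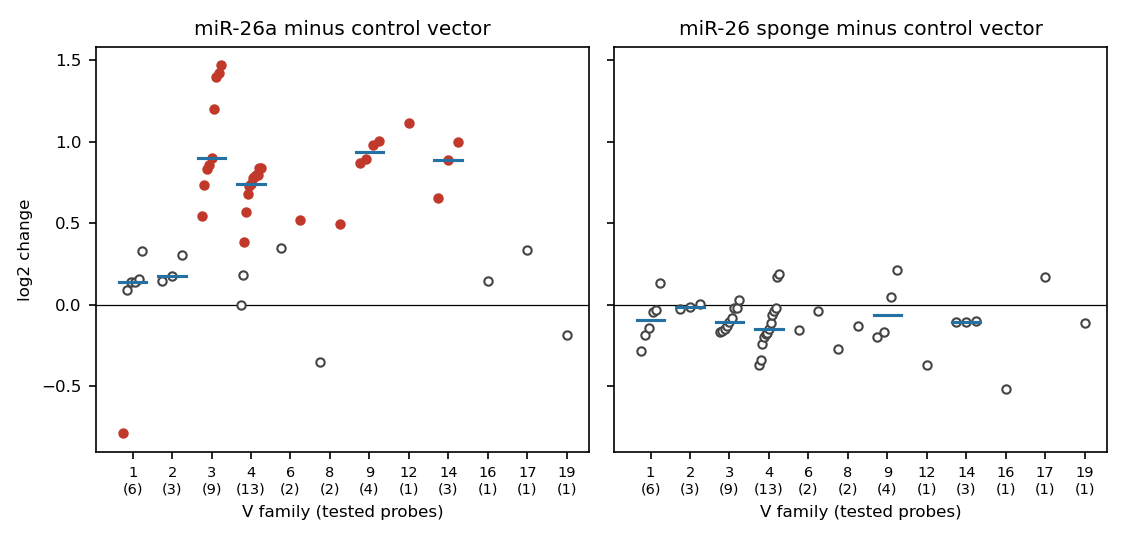
Log2 change of the tested V probes by family, for miR-26a minus control (left) and miR-26 sponge minus control (right), with the number of tested probes in brackets and a blue line at the median of families with 3 or more (the probe of ENSMUST00000103301, which has no family, is not drawn). Red points have an adjusted p under 0.05. With miR-26a the medians of families 3, 4, 9 and 14 lie between 0.74 and 0.94, and those of families 1 and 2 at 0.14 and 0.17.

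The remaining families had 1 or 2 tested probes each. Igkv12-89 gave 6.42 and 6.56 with the control vector, 7.47 and 7.74 with miR-26a, and 5.93 and 6.30 with the sponge, so that no groups overlapped. It rose by 1.12 with miR-26a (limma adjusted p = 0.00458), the largest rise outside family 3. Igkv8-28 and Igkv6-17, named here for the shared stretch printed above after their values were seen, rose by 0.50 and 0.52 and whether each also binds the other's transcripts was not tested. Igkv8-24, whose mapped span is longer than its probe, differed by -0.35 (limma adjusted p = 0.179), Igkv19-93 by -0.18, Igkv17-121 by 0.33 and Igkv16-104 by 0.15. Those 4 were not called.

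Unbroken shared runs did not cover all calls. Of the 30 probes called higher, 14 shared a run of at least 20 bases with another tested kappa probe and 16 did not. The 16 probes without such a run had a median change of 0.94 (0.39 to 1.47) and include Igkv3-1, Igkv3-2, Igkv3-7, Igkv9-124, Igkv14-111 and Igkv12-89. Probes without such a run can still be similar: those for Igkv3-2 and Igkv3-12 are identical at 49 of 57 aligned bases, with a longest run of 11. When probes joined by runs of at least 20 bases were counted together, the 30 made 20 groups, which need not be independent. Transcripts of segments without a probe were not part of this comparison.

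The V probes were split at the median of their mean signal into 24 dim and 23 bright probes. All 23 bright probes lay above 0 with miR-26a (0.09 to 1.47), with a median change of 0.84 and 16 called higher. The 24 dim probes had a median of 0.51 (-0.79 to 1.12), with 14 called higher and 1 lower. Calls were thus made on both sides of the split. A difference between the dim and bright probes was not tested. By orientation, the 25 V probes on the strand of Igkc had a median change of 0.65 with 15 higher and 1 lower, and the 21 on the opposite strand had 0.73 with 15 higher. Of the V segment pseudogenes, 3 probes were tested, with a median of 0.30 and 1 called higher, and V segments had 43 probes with a median of 0.73.

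**Figure D4:**
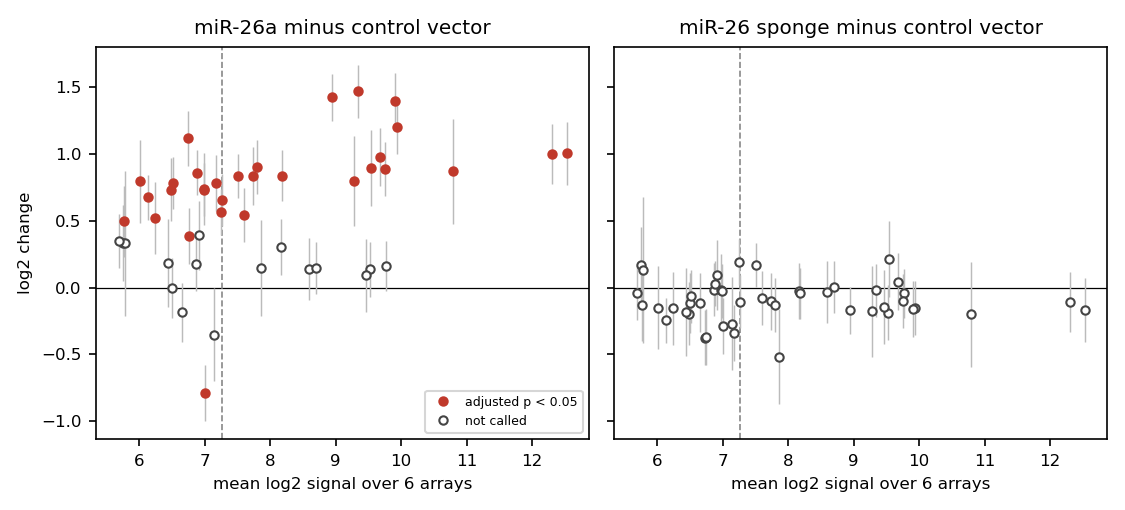
Log2 change of the tested V probes against their mean log2 signal over the 6 arrays, for miR-26a minus control (left) and miR-26 sponge minus control (right), with 95% confidence intervals as bars. Red points have an adjusted p under 0.05, and the dashed line is the median that separates the 24 dim from the 23 bright probes. Both sides hold called probes with miR-26a, 14 higher among the dim and 16 among the bright, and none with the sponge.

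The kappa locus probes that were not tested divide by detection. The 13 V probes that every array detected but with signals mostly under the limit had processed signals of 12.7 to 96.6, and their median change with miR-26a was 0.60 (0.06 to 1.06), with 9 higher and 0 lower in both experiments. With the sponge their median was -0.0003. The 11 probes seen on some arrays had a median of 0.21 and ran from -2.76 to 1.43, with signals near background. The 22 probes seen on no array give no usable change.

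On each array the V probes together moved as the single probes did. The median log2 signal of the 47 tested V probes was 7.22 and 7.36 with the control vector, 7.66 and 7.95 with miR-26a, and 7.03 and 7.34 with the sponge, while the median over all tested probes was 9.80 on every array. Replicate 2 was above replicate 1 in each group. The miR-26a replicate 2 array was the highest of the 6 for 39 of the 47 V probes, and the sponge replicate 1 array was the lowest for 35. The spread between replicates was larger for V probes than for others, with a median SD of 0.17 to 0.26 per group against 0.07 to 0.10 over all tested probes. In bulk RNA, a larger share of cells with a transcript and more transcript per cell cannot be told apart.

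With the sponge, no kappa probe was called. limma called 0 of 48 higher and 0 lower against the control vector, where 0.00992% of all tested probes (2 probes) were called higher and 0% lower. At an unadjusted p under 0.05 it had 2 kappa probes higher (4.17%, against 7.64% of all tested probes) and 6 lower (12.5%, against 8.34%). None of the other settings that kept all 6 arrays called a kappa probe. The t-tests and the fit without a filter called 0 of all probes in this comparison, so they cannot tell kappa probes from others. The median change was -0.11 (-0.52 to 0.21), with 39 of 48 probes below 0, against 0.008 over all tested probes. In the first experiment the median was -0.20 and in the second -0.01. The sponge arrays lay above both control arrays for 0 probes, where 17.9% of all tested probes did so, and below them for 9 (18.8%), where 20% of all tested probes did so.

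The most negative sponge values were those of Igkv16-104 and Igkv12-89. Igkv16-104 gave 7.77 and 8.18 with the control vector, 7.70 and 8.55 with miR-26a, and 6.97 and 7.95 with the sponge, a sponge difference of -0.52 (95% interval -0.87 to -0.16, limma adjusted p = 0.233). Its groups overlapped, and the replicates of the sponge lay far apart. For Igkv12-89 the sponge arrays were below both controls, with a difference of -0.37 (limma adjusted p = 0.221). By family, the sponge medians were -0.10 for family 3, -0.15 for family 4, -0.06 for family 9, -0.11 for family 14, -0.09 for family 1 and -0.02 for family 2.

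Set against each other, the constructs differed at most of the probes that had moved with miR-26a. limma called 32 of 48 kappa probes higher and 1 lower in cells with miR-26a than in cells with the sponge, where 8.16% of all tested probes were called higher and 8.56% lower. The median difference was 0.72, against 0.02 over all tested probes. The miR-26a arrays lay above both sponge arrays for 36 of 48 probes (75%), where 27.8% of all tested probes did so, and below them for 1 (2.08%), where 23.1% did so. Igkv3-1 differed by 1.59 (limma adjusted p = 0.00143) and Igkv3-4 by 1.55, and Igkv1-135 by -0.50 (limma adjusted p = 0.0179). This comparison used no control array, yet it shares the miR-26a arrays with the one above. Without the experiment in the fit the count higher was 14, and over all tested probes it was 355, in place of 1646. Fewer were also called without either sponge array, among kappa probes and over all tested probes, in fits with 1 sponge array left.

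Genes that act on the kappa locus were read from lists of the recombination machinery and of transcription factors, with the brightest probe standing for each gene. Of 15 genes of V(D)J recombination, all tested, 4 were lower (26.7%, against 5.13% of all tested probes) and 1 higher (6.67%, against 4.59%) with miR-26a, with a list median of -0.12. Rag2, which with Rag1 makes the enzyme that cuts at recombination signals, gave 9.37 and 9.35 with the control vector, 6.04 and 5.96 with miR-26a, and 9.33 and 9.60 with the sponge, and fell by 3.36 on the log2 scale (limma adjusted p = 0.000918). Rag1 gave 9.39 and 9.70, then 6.55 and 7.62, then 9.32 and 9.57, and fell by 2.46 (limma adjusted p = 0.0054). For both genes the miR-26a arrays were far below all others. The second probe of each gene was too dim to be tested. Dntt, the polymerase that adds bases at joints, fell by 1.12 (limma adjusted p = 0.00531), and Polm, a joining polymerase, fell by 0.51 (limma adjusted p = 0.0223). Xrcc5, the Ku80 subunit of end joining, rose by 0.36 (limma adjusted p = 0.0346). With the sponge 0 of the 15 were called.

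Of 27 regulators of the locus, 24 were tested, with 1 higher (4.17%) and 2 lower (8.33%) with miR-26a, a list median of -0.04, and 0 called with the sponge. These shares are near the 4.59% and 5.13% of all tested probes, so the counts set the list apart in neither direction, and the genes are given singly. Irf4, a transcription factor that acts at the kappa enhancers, gave 11.45 and 11.69 with the control vector, 10.24 and 10.51 with miR-26a, and 11.19 and 11.69 with the sponge, and fell by 1.19 (limma adjusted p = 0.00461). The miR-26a arrays were below all others. Ezh2, a histone H3 lysine methyltransferase, fell by 0.50 (limma adjusted p = 0.0207), and Pou2f2, which binds the octamer of immunoglobulin promoters, rose by 0.53 (limma adjusted p = 0.0266). The other factors followed by name were not called: Tcf3 differed by 0.002, Ikzf1 by 0.03, Pax5 by -0.22, Foxo1 by -0.16 and Ikzf3 by -0.35. No probe was named Spi1. Of the 6 tested partners of the pre-B cell receptor, which pairs a heavy chain with the surrogate light chain, 0 were called in any comparison.

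The pre-B cell markers Cd79a, Vpreb1, Igll1, Il7r, Ebf1, Pax5 and Dntt exceeded background clearly on every array. Dntt was the only one of these called changed with miR-26a, with the fall given above, and the others differed by -0.22 to 0.19. Of 5 plasma cell markers on the array, 3 were detected on every array and 2, Igj and Tnfrsf17, on none. Their summed signal was 5045 and 4545 in the controls, 6206 and 5316 with miR-26a, and 5824 and 4604 with the sponge. Both miR-26a arrays were above both controls, the sponge arrays overlapped with each of the other groups, and 0 of the 3 tested markers were called. The sum is mostly the signal of Xbp1, with a mean log2 signal of 12.2 against 8.0 for Prdm1 and 7.8 for Sdc1. With miR-26a, Xbp1 differed by 0.30 (limma adjusted p = 0.0782), Prdm1 by -0.05 and Sdc1 by -0.11. The part of these markers in the result was not tested. Of 4 mature B cell markers, 2 were detected on every array and Ms4a1 on none. Their summed signal was 333.8 and 376.6 in the controls, 699.6 and 805.7 with miR-26a, and 329.8 and 439.4 with the sponge. Only Cr2, a complement receptor and the brightest of the 4, was tested, and it was higher by 1.18 with miR-26a (limma adjusted p = 0.00291). Fcer2a was untested with a difference of 0.36, and Cd40, well above background on 2 arrays, had a difference of -0.56. The rise of Cr2 went with that of the V probes, and its part in the result was not tested. T cell and myeloid lists had 2 tested genes each and the erythroid list 0, none of them called.

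Rbpj, caught by the rule through its description and a mediator of Notch signalling, has 2 tested probes. Both differed by -0.18 with miR-26a (limma adjusted p = 0.175 and 0.204) and by 0.03 and -0.03 with the sponge. The 2 probes for its relative Rbpjl were not tested.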

How the data were processed

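The authors deposited, for each array, scanner output in which every spot has an intensity (Agilent Feature Extraction 10.7.1.1 per the submitters' processing notes), and a table of their processed values, which are quantile-normalized intensities on a linear scale. From the scanner output, control spots were left out. The processed signals were quantile-normalized, put on the log2 scale and averaged where a probe had several spots. Outlier-flagged spots were left out, unless every spot of the probe on that array was flagged. limma 3.58.1 (R 4.3.3) was fitted to all 6 arrays with experiment as a block, with Benjamini-Hochberg adjustment over the 20168 tested probes and a threshold of 0.05. Adjusted p-values come from limma throughout. The fit was tested on simulated data. Tables and plots used Python 3.11.15, pandas 2.3.3, numpy 2.4.6 and matplotlib 3.10.9.

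Groups and replicate numbers came from the labels, and the methods describe independent experiments, each normalized to its own control. Deviations from the group means were correlated over all tested probes between arrays of the same number, at 0.38 (miR-26a and control), 0.59 (sponge and control) and 0.45 (miR-26a and sponge). Over the 47 tested V probes the values were 0.22, 0.53 and 0.57 in the same order. The labels of the control arrays also quote identifiers of other samples, so their pairing rests on the number.

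Kappa probes were named by a rule: the C probes, probes called in any comparison (up to 20 per comparison by size), the 10 brightest V probes, and the 5 largest rises and falls per comparison. Probes named for a shared or unusual sequence were added after their values were seen. Members, lists and tests were chosen with earlier results of these data known. Gene names and mm9 positions are those of the array design. For 84 of the 94 kappa probes the V gene or name was read from the design's description because the name field held a transcript identifier. RefSeq (GRCm38.p6) gave only names, gene types and miRNA sequences. Alternatives were the fit without the block, the authors' own normalized values, 75th-percentile scaling, a normexp correction (offset 50), 3 other filters, an unpaired t-test, a test of the 2 log ratios, and leaving out each array. A marker gene of the pre-B cell list is not reported here.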

Additional observations from a re-analysis of the deposited data

Results flagged for a closer look

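For 25 named kappa probes the effects of miR-26a and of the sponge differed, by limma's test of miR-26a minus sponge with an adjusted p under 0.05 and no overlap between those arrays. Calls in this comparison were part of the naming rule, so 25 does not measure how common the difference is. Of all 48 tested kappa probes 32 were called higher, against 8.16% of all tested probes. Probes not named by the rule also met both limits, as Igkv14-126 (0.76) and Igkv4-90 (0.76), so the lists below are not complete. In family 3 the log2 difference was 1.59 for Igkv3-1, 1.49 for Igkv3-2, 1.55 and 1.03 for the 2 probes of Igkv3-4, 1.35 for Igkv3-7, 0.83 for Igkv3-10 and 0.94 for Igkv3-12. In families 9 and 14 it was 1.17 for Igkv9-124, 0.93 for Igkv9-129, 0.68 for Igkv9-123, 1.07 for Igkv9-120, 1.11 for Igkv14-111 and 0.99 for Igkv14-130. In family 4 it was 0.94 for Igkv4-86, 0.93 for Igkv4-80, 0.38 for Igkv4-78, 1.12 for Igkv4-73, 0.67 for Igkv4-70, 0.88 for Igkv4-63, 0.76 for Igkv4-58, 0.85 for Igkv4-57-1, 0.97 for Igkv4-71 and 0.92 for Igkv4-53. Igkv12-89 differed by 1.49, and Igkv1-135 by -0.50, the only one lower with miR-26a. Several of these probes share sequence, so the number of probes is not a number of independent transcripts.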

How the results depend on the processing

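No named probe reversed direction in a called value under any alternative. Without the replicate block that pairs the arrays, 3 kappa probes were called higher with miR-26a than control and 14 higher with miR-26a than sponge, in place of 30 and 32, with 1 and 0 called lower. Over all probes, calls against the control fell to 74 higher and 238 lower without the block. With no filter, 0 of all 55681 probes were called in any comparison, so 0 kappa probes were. At an unadjusted p under 0.05, 46 of 94 were higher with miR-26a than control, and the medians were 0.49 (against control) and 0.67 (against sponge). In the filtered fit such a p was reached upward by 70.8% of the kappa probes, against 14.5% of all tested probes. The unpaired t-test and the test of the 2 log ratios also called 0 kappa probes in either direction. Over all tested probes the unpaired t-test called 0, and the log-ratio test called 1, higher with miR-26a than control. With normexp background correction the medians were 0.44 against control and 0.51 against sponge. The filter on 2 arrays gave a median of 0.76 against sponge. Leaving out each array in turn gave 11 to 27 higher and 0 to 1 lower against control, with medians of 0.60 to 0.70, and 11 to 35 higher and 0 to 1 lower against sponge, with medians of 0.67 to 0.80. Between sponge and control, 0 kappa probes were called in the settings that kept all arrays, and the leave-one-out medians were -0.18 to -0.03. The causes were not tested. With 2 arrays a group precision is limited, and 46 of the 94 kappa probes were too dim to test.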
